A study of Mus musculus with 16 samples.

Results

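The 53 genes described here lie on autosomes, were almost without RNA in wildtype (WT) mouse embryonic stem cells (ESCs) and were above 1 RPM (reads scaled to the library's total in M) in every library that lacked Dnmt1. They were chosen by their values. A gene was taken if its mean over the 8 WT libraries was below log2 RPM of -1 (0.5 RPM) and all 8 knockout libraries were above log2 RPM of 0 (1 RPM). Of the 26127 genes in the deposited table, 24995 lay on chromosomes 1 to 19, and 12304 of those had a WT mean below -1. Both limits were met by 60 genes. Of these, 7 were left out by name (6 Zscan4 genes and the imprinted Mirg), so 53 remained, or 0.431% of the autosomal genes that were low in WT.

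RNA was measured by sequencing of total RNA without ribosomal RNA. The labels place all cells in the E14 background and name 3 genotypes: Wildtype (8 libraries), Dnmt1-/- (4 libraries, here Dnmt1 KO) and Dicer/Dnmt1 -/- (4 libraries, here Dicer/Dnmt1 KO). The study's methods describe a Dnmt1 line on a C57BL/6 background whose floxed alleles are cut by Cre after tamoxifen. They also describe double lines made from it by CRISPR, with Dicer deleted either conditionally or constitutively. The background and the type of double line are thus open, so the origin of the cells is not certain. The labels give no time after deletion, no culture batch and no clone, and all groups share only the E14 and ESC labels. Libraries are labelled by a number and by A or B, letters of unstated meaning, so all errors below measure the spread between libraries, which may be technical in part.

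Dnmt1 copies DNA methylation onto the new strand when cells divide. Cytosine methylation at the start of a gene is a known means of keeping it off, above all for germ cell genes whose promoters are rich in CpG sites. Another known class of genes off in most ESCs are multicopy genes that are switched on for a short time in the two-cell embryo, among them relatives of PRAME, of the deubiquitinase USP17 and of the translation factor Eif1a. Dicer1 makes microRNAs from hairpin precursors.

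The start regions of 5 of the 53 genes are given as examples from a range of 0 to 46 CpG sites per window over the set. Each line gives the 250 bases before and the 50 bases from the annotated start (build NCBIM37), 5′ to 3′, with CpG sites in capitals. Fkbp6, Hormad2 and Tktl2 are shown because they are germ cell genes, with 12 to 23 CpG sites. Dub1 and Dub1a are shown because they are neighbouring multicopy genes with nearly none.
Fkbp6, chr5:135825846-135826145, minus strand: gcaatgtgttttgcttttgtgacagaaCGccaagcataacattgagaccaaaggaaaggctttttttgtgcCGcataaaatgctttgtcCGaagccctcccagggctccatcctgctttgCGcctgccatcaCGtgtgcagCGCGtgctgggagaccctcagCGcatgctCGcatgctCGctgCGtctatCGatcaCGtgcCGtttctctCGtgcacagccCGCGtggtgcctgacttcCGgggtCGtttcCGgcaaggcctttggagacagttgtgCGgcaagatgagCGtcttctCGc
Hormad2, chr11:4341059-4341358, minus strand: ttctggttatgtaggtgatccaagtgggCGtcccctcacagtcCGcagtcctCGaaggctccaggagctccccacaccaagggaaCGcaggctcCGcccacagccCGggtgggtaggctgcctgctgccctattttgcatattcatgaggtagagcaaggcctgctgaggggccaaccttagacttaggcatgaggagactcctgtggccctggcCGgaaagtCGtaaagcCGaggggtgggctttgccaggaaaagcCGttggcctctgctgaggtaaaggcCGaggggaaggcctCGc
Tktl2, chr8:69035389-69035688, plus strand: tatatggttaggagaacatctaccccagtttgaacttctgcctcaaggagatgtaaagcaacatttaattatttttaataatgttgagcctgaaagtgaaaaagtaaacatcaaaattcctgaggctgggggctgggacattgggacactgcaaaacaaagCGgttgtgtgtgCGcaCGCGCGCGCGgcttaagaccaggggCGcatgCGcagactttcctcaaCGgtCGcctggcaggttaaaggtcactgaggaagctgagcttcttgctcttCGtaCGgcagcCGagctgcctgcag
Dub1, chr7:112005273-112005572, plus strand: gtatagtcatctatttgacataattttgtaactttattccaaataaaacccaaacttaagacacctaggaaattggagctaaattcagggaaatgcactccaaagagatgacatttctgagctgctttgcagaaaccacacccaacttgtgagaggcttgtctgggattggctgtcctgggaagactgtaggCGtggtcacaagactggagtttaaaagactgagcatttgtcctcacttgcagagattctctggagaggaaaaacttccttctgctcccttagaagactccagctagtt
Dub1a, chr7:111991068-111991367, minus strand: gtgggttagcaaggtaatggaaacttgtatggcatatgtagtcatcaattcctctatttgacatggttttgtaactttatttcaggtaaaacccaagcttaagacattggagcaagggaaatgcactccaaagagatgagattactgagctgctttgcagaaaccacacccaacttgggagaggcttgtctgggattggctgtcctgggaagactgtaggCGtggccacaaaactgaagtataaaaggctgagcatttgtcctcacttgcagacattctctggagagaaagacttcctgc
The windows hold 23 CpG sites for Fkbp6, 12 for Hormad2 and 14 for Tktl2, but 1 for Dub1 and 1 for Dub1a. The observed number of CpG sites over the number that the base composition would give was 0.96 for Fkbp6, 0.43 for Hormad2, 0.77 for Tktl2 and 0.07 for both Dub genes.

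The libraries held 31.5 to 52.5 M reads, of which 44.2% to 48.7% fell in listed genes. At that depth log2 RPM of 0 corresponds to 31 to 53 reads, and a count of 0 allows up to 3 reads, which is 0.0571 to 0.0954 RPM. Such limits cover counting error alone, as the reads carry no molecular identifiers and may repeat a molecule. Dnmt1 RNA was at log2 RPM of 5.55 to 7.66 in WT, 4.17 to 4.63 in Dnmt1 KO and 4.49 to 4.64 in Dicer/Dnmt1 KO, and it differed from WT by -2.66 and -2.49 (limma, adjusted p = 1.2e-05 and 1.1e-05). Dicer1 RNA was lower in Dicer/Dnmt1 KO than in Dnmt1 KO by 1.59 on the log2 scale (limma, adjusted p = 1.5e-05). Pou5f1, a defining ESC gene, was at log2 RPM of 8.08 to 8.79 over all libraries. Nanog, a second such gene, was at 8.23 to 8.75 in WT, 7.58 to 8.25 in Dnmt1 KO and 8.58 to 8.68 in Dicer/Dnmt1 KO. Summed RPM of 5 Y-linked genes was 0.298 to 1.4 in WT and 14.4 to 22 in the knockouts, so a difference between cell lines and the loss of Dnmt1 cannot be told apart in any comparison with WT. In RNA of whole cultures, a change in few cells and a change in all cells cannot be told apart either.

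The WT level of the 53 genes was low but not 0. No gene lacked reads in all 8 WT libraries, 37 had reads in every WT library, and 7 lacked reads in at least 4. Their WT means ran from log2 RPM of -5.46 (Gm9049) to -1.0 (Ace and Trank1), with a median of -2.21. A WT library above 1 RPM was found for 3 genes, Fbp2 (0.54 in WT 4A), Soat2 (0.14 in WT 4B) and Gm9107 (0.01 in WT 3A).

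Over the 8 knockout libraries the means of the 53 genes ran from log2 RPM of 0.38 to 2.94, with a median of 1.16. The summed RPM of the set was 10.9 to 17.3 in WT, 141 to 160 in Dnmt1 KO and 125 to 146 in Dicer/Dnmt1 KO. The median difference from WT was 3.60 for Dnmt1 KO and 3.46 for Dicer/Dnmt1 KO on the log2 scale, beside 0.04 and 0.02 over the 12892 genes tested. These values are what the genes were selected on and are given without a test. By the same token all 53 genes were called higher than WT in both knockouts, as were 23.5% of all tested genes for Dnmt1 KO and 31.9% for the double knockout. The 53 genes also had no overlap between WT and knockout libraries, which the limits nearly ensure. The share of all genes without such overlap was not counted.

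**Figure D1:**
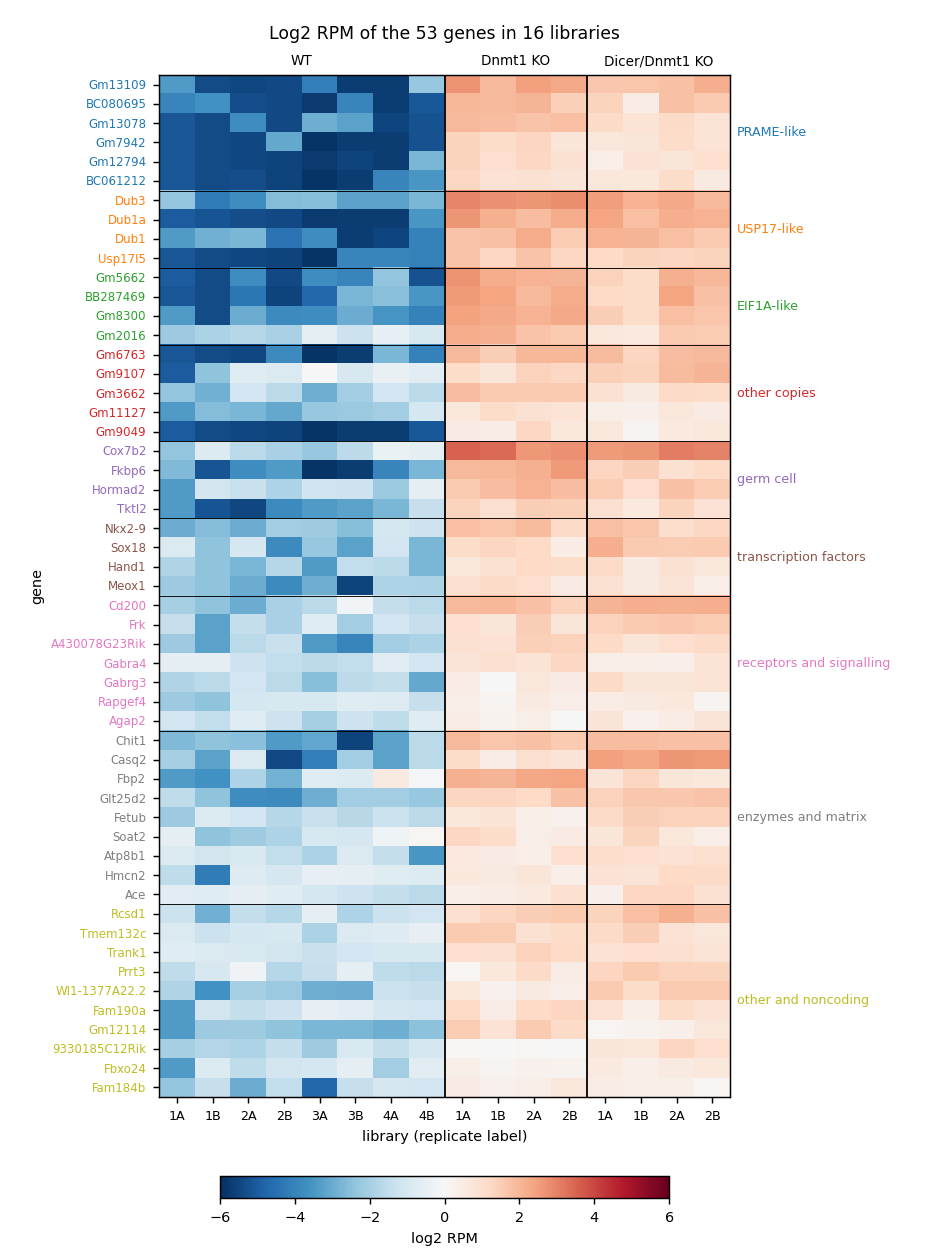
Log2 RPM of the 53 genes (rows, grouped by role, names coloured by group) in the 16 libraries (columns, with the replicate label), from dark blue (-6) to dark red (6). The step from WT to the knockouts is what the genes were chosen for, and within WT the PRAME-like, USP17-like and Eif1a-like genes are dark blue in most libraries, apart from Gm2016.

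At the WT limit, Ace (-1.0), Trank1 (-1.0), Tmem132c (-1.03), Gabra4 (-1.10) and Soat2 (-1.13) were the nearest genes inside. Gm10863 (-0.99), Fat2 (-0.98), Pla2r1 (-0.92), Zp3 (-0.88) and Gsta3 (-0.86) met the knockout limit and were the nearest outside. At the knockout limit, the lowest knockout library was at 0.00 for 9330185C12Rik, 0.01 for Gabrg3, 0.04 for Agap2 and 0.11 for Gm12114 and Fam184b. It was just short of it for Gm16096 and Fut2 (-0.04), Zfp352 (-0.05), Mst1 (-0.06) and BC057022 (-0.06).

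Of the 53 genes, 50 are annotated as protein coding, 1 as a lincRNA (9330185C12Rik) and 2 as processed transcripts. They lie on 17 of the 19 autosomes, with 9 on chromosome 5 and none on chromosomes 14 and 19. The median length of the longest transcript was 2095 bases, beside 2206 for all autosomal genes. Another gene of the set lay within 100 kb for 8 genes, namely Dub3, Dub1a and Dub1 on chromosome 7, BB287469, Gm8300 and Gm2016 on chromosome 12, and Cox7b2 and Gabra4 on chromosome 5. Another annotated gene overlapped 15 of the 53, on the same strand for 6. The model of BB287469 (88833274 to 89135166) spans Gm8300 and Gm2016 on the same strand, so that their reads may not be separable, and WI1-1377A22.2 overlaps Wdfy3 on the other strand. The sources do not say whether the counting used strand.

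A total of 19 genes had a near relative in the genome by sequence, and these made up 4 groups. For 13 of the 53 genes another gene shared at least 95% of the bases over at least 50% of the transcript, and for 19 at least 90%. Reads that fit several places can be lost to the authors' filter on mapping quality, so the level of each copy is uncertain and the family sum is given beside it. In the sums a gene without reads enters as deposited, at 0.9 read.

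The PRAME-like genes encode leucine-rich repeat proteins of a family known from oocytes, testis and early embryos. The group holds Gm12794, BC080695, Gm13078 and Gm13109 on chromosome 4 and BC061212 and Gm7942 on chromosome 5. Their proteins were 37.9% to 94% identical, with BC080695 and Gm13109 the closest pair. All 6 were near the floor in WT, with means of -5.19 to -4.57, and 4 of them lacked reads in at least 4 WT libraries. Gm7942 had 5 reads over the 8 WT libraries, 316 over the 4 Dnmt1 KO libraries and 249 over the 4 Dicer/Dnmt1 KO libraries.

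Summed RPM of the PRAME-like genes was 0.165 to 0.53 in WT with a median of 0.24. It was 21.7, 17.2, 19.5 and 16.2 in Dnmt1 KO 1A, 1B, 2A and 2B, and 12.4, 11.4, 14.8 and 14.6 in the Dicer/Dnmt1 KO libraries in the same order. Every Dicer/Dnmt1 KO library was below every Dnmt1 KO library, and the median difference over the 6 genes was -0.61 in number 1 and -0.12 in number 2. Gm13078 was lower in both numbers (-0.88 and -0.76), with values of 1.93, 1.83, 1.69 and 1.81 in Dnmt1 KO and 1.16, 0.84, 1.15 and 0.83 in Dicer/Dnmt1 KO. Its 2 groups did not overlap, and the difference was -0.82 ± 0.54 (SE; limma, adjusted p = 0.25).

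The 4 USP17-like genes encode deubiquitinases of a multicopy family in which Dub1 was first known as a gene that cytokines induce in lymphoid cells. Dub3, Dub1a and Dub1 lie side by side on chromosome 7, between 111916825 and 112011181, and Usp17l5 lies at 110563586 to 110568394 on the same chromosome. Their proteins were 81.1% to 89.1% identical to each other. Among autosomal genes with a name that starts with Dub, 3 of 4 were in the set. The remaining one, Dub2a, was 97.1% identical in protein to Usp17l5 and missed the knockout limit, with a WT mean of -5.48 and knockout means of -0.19 and -0.32.

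Dub1a had 8 reads over all WT libraries. Its log2 RPM was -5.72 to -3.48 in WT with a median of -5.36, then 2.63, 2.12, 1.86 and 2.22 in Dnmt1 KO and 2.37, 1.80, 2.20 and 2.07 in Dicer/Dnmt1 KO. The knockout groups overlapped, and the difference was -0.10 (95% interval -0.97 to 0.77). Dub1 differed by 0.07 (-1.07 to 1.22) and Usp17l5 by -0.18 (-1.11 to 0.74).

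Dub3 stood at 2.95, 2.73, 2.67 and 2.81 in Dnmt1 KO and at 2.52, 2.09, 2.27 and 1.96 in Dicer/Dnmt1 KO. Its groups did not overlap, though the 16-library fit did not call the difference of -0.58 ± 0.33 (limma, adjusted p = 0.18). Per kilobase of transcript, Dub3 was at 4.28 RPM in Dnmt1 KO, beside 3.02 for Dub1a, 1.34 for Dub1 and 1.17 for Usp17l5. Summed over the 4 genes, RPM was 0.209 to 0.357 in WT, 16.8 to 20.5 in Dnmt1 KO and 13.6 to 17.4 in Dicer/Dnmt1 KO, where the knockout groups overlapped.

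BB287469, Gm8300, Gm2016 and Gm5662 on chromosome 12 encode proteins of 144 residues that were 97.2% to 98.6% identical to each other. The nearest gene outside their cluster was Eif1a, the translation initiation factor on chromosome 18, which was 95.1% identical to Gm8300 and present in all groups (mean log2 RPM of 7.19, 7.26 and 6.71). BB287469 was at -5.56 to -2.53 in WT (median -4.52), and Gm2016, the highest of the 4 in WT, at -2.17 to -0.48 (median -1.52).

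Knockout values of the Eif1a-like genes depended on the replicate number. BB287469 was at 2.54, 2.37, 1.94 and 2.22 in Dnmt1 KO and at 1.20, 1.12, 2.39 and 1.78 in Dicer/Dnmt1 KO. Gm2016 was at 2.23, 2.11, 1.72 and 1.56 in Dnmt1 KO and at 0.70, 0.59, 1.56 and 1.5 in Dicer/Dnmt1 KO. In both genes the low libraries were Dicer/Dnmt1 KO 1A and 1B, while number 2 overlapped or nearly overlapped with Dnmt1 KO. Gm5662 likewise differed by -1.22 in number 1 and by -0.02 in number 2. Gm8300 was lower in both numbers (-1.06 and -0.45) and did not overlap. It was at 2.42, 2.29, 2.09 and 2.28 in Dnmt1 KO and at 1.48, 1.12, 1.81 and 1.67 in Dicer/Dnmt1 KO.

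Summed RPM of the 4 genes gave the same picture, with 22.4, 19, 15.7 and 16.6 in Dnmt1 KO and 9.26, 8.02, 16.1 and 13.4 in Dicer/Dnmt1 KO. Within number 1 the median difference between the knockouts was -1.26 over the 4 genes, and within number 2 it was -0.06. In the 16-library fit the differences ran from -0.81 (Gm2016, adjusted p = 0.091) to -0.62 (Gm5662, adjusted p = 0.39; limma), and none of the 4 was called, while 1 had an unadjusted p under 0.05.

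The other 5 genes with near copies were Gm9107, Gm6763, Gm9049, Gm11127 and Gm3662. Gm9107 was 97.9% identical in protein to Tdpoz5, of a family with TRAF and POZ domains. Gm6763 was closest, among named genes, to the RNA export factor Refbp2 (55.6%), Gm9049 to the splicing factor Cdc5l (98.0%) and Gm11127 to H2-T9, a class I histocompatibility gene (96.8%). Gm9049 had 2 reads over all WT libraries and 241 over the Dnmt1 KO libraries, while Cdc5l itself was at 6.63, 6.60 and 6.70 in the 3 groups. Gm3662 also had copies with RNA in WT. Its copy with 99.8% protein identity, Gm2783, was at 2.77 in WT, then at 3.93 and 3.78 in the knockouts. In the 3 groups Gm4511 was at 2.58, 4.28 and 3.83, Gm17672 at 0.6, 4.14 and 3.63, and Gm17462 at -0.3, 3.03 and 2.4. Gm3129 on the X chromosome was at -3.59, -0.33 and -0.92.

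**Figure D2:**
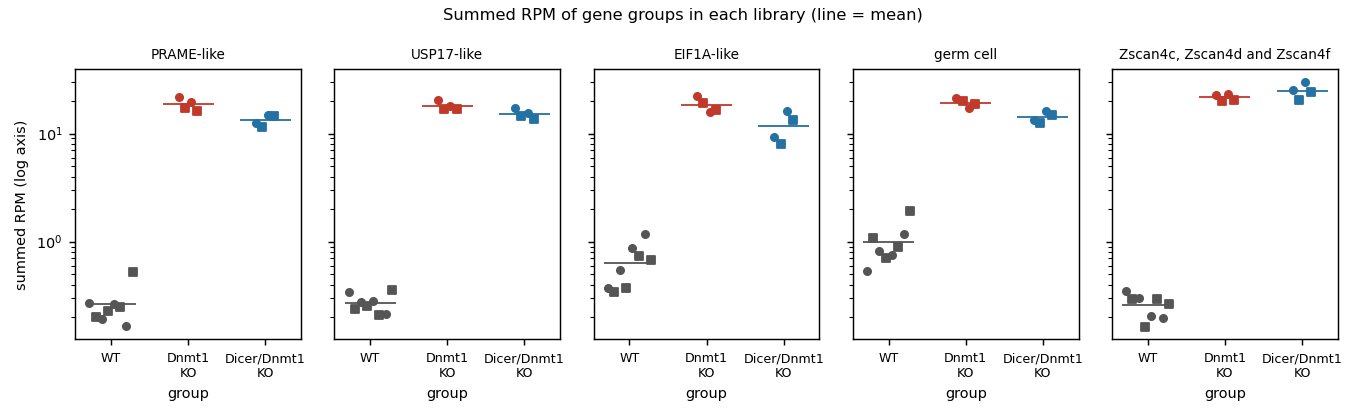
Summed RPM (log axis) of the PRAME-like, USP17-like, Eif1a-like and germ cell genes of the set in each library, with circles for letter A, squares for letter B and a line at the mean, and of Zscan4c, Zscan4d and Zscan4f for comparison. In the Eif1a-like genes Dicer/Dnmt1 KO spreads from 8.02 to 16.1 RPM, while the Zscan4 genes lie at 20.1 to 23.2 in Dnmt1 KO and 20.5 to 30.2 in Dicer/Dnmt1 KO.

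Further copies of these genes were mostly lower than those in the set. The table held 46 other genes with a protein at least 80% identical to one of these 19. Of them 39 had a WT mean below -1, 41 were higher by mean in both knockouts than in WT, and 7 were above 1 RPM in all knockout libraries. All 23 PRAME-like relatives had a WT mean below -1 and were higher by mean in both knockouts, but none was above 1 RPM in every knockout library. These counts are not independent of the set, since copies share reads.

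Zscan4c, Zscan4d and Zscan4f, which mark the rare two-cell-like state of ESC cultures, were left out by name but met both limits. Their summed RPM was 0.162 to 0.349 in WT, 20.1 to 23.2 in Dnmt1 KO and 20.5 to 30.2 in Dicer/Dnmt1 KO. Between the knockouts they differed by 0.06, 0.25 and 0.24 (limma, adjusted p = 0.94, 0.78 and 0.76). In the same comparison 13 of the 14 PRAME-like, USP17-like and Eif1a-like genes lay below 0, with a median of -0.56. Over all genes tested the median was -0.01, and 49.2% lay above 0. The fit over all libraries called 0 of the 14 higher and 0 lower. Copies share reads, so the 14 genes are not independent. Their groups were also formed with the values known, so the count is a description. Within number 1 the median of the 14 genes was -0.62 and within number 2 it was -0.14, beside 0.09 and 0.29 for the median of the 3 Zscan4 genes. The difference between these genes and the Zscan4 genes was not tested.

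The 4 germ cell genes were Fkbp6, Hormad2, Tktl2 and Cox7b2. Fkbp6 encodes an immunophilin needed for male meiosis and for silencing of transposons by piRNAs. It was at -5.87 to -2.66 in WT with a median of -3.84. In Dnmt1 KO it stood at 1.94, 2.00, 2.14 and 2.54, and in Dicer/Dnmt1 KO at 1.31, 1.47, 0.93 and 1.19. All Dicer/Dnmt1 KO libraries were lower, and both numbers went the same way (-0.58 and -1.27). The difference of -0.93 ± 0.61 was not called in the 16-library fit (limma, adjusted p = 0.25) and was called when only the 8 knockout libraries were fitted (limma, SE 0.17, adjusted p = 0.00057).

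Hormad2 encodes a HORMA domain protein that marks unsynapsed chromosome axes in meiosis. It was at -3.39 to -0.55 in WT (median -1.27), at 1.55, 1.83, 2.07 and 1.84 in Dnmt1 KO and at 1.5, 0.99, 1.78 and 1.52 in Dicer/Dnmt1 KO. The knockout groups overlapped, with a difference of -0.38 (95% interval -1.28 to 0.52).

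Tktl2 is a gene without introns, related to transketolase and known from testis. It was at -5.47 to -1.37 in WT (median -3.39), at 1.34, 0.98, 1.47 and 1.43 in Dnmt1 KO and at 0.98, 0.59, 1.33 and 0.88 in Dicer/Dnmt1 KO. These groups also overlapped, and the difference was -0.36 (-1.68 to 0.96).

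Cox7b2 encodes a testis form of a subunit of cytochrome c oxidase. Per kilobase of transcript it was the most abundant gene of the set in Dnmt1 KO, at 16.1 RPM, followed by Dub3 (4.28) and Gm6763 (4.22). Its log2 RPM was -2.39 to -0.40 in WT (median -1.58), 3.56, 3.38, 2.60 and 2.72 in Dnmt1 KO and 2.57, 2.63, 3.06 and 2.97 in Dicer/Dnmt1 KO. The 2 numbers went in opposite ways, -0.87 in number 1 and 0.35 in number 2, and the fitted difference was -0.26 (-1.08 to 0.57). Gabra4, its neighbour on the same strand, was at 0.77, 0.94, 0.81 and 1.26 in Dnmt1 KO and at 0.37, 0.40, 0.30 and 0.81 in Dicer/Dnmt1 KO, with the same sign in both numbers (-0.47 and -0.48).

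Of a list of 72 germ cell and testis genes, 70 were in the table, 3 were among the 53 (Fkbp6, Hormad2 and Tktl2) and 34 others were tested. Of these 34, 22 were higher and 3 lower than WT in Dnmt1 KO, and 19 were higher and 6 lower in Dicer/Dnmt1 KO (limma, adjusted p under 0.05). Genes below log2 RPM of 0 in every WT library were tested only through knockout libraries above it, so counts against WT lean towards higher. The list was also chosen with earlier results of these data known. Over all genes tested 23.5% were higher and 17.5% lower for Dnmt1 KO, and 31.9% and 30.1% for Dicer/Dnmt1 KO. Between the knockouts 4 were higher and 10 lower in Dicer/Dnmt1 KO, with a median of -0.13, beside 16.9% and 19.4% of all genes. Tex19.1, for example, was at 4.05 in WT, with 5.41 and 4.53 in the knockouts. Of a list of 19 interferon response genes, none was among the 53.

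**Figure D3:**
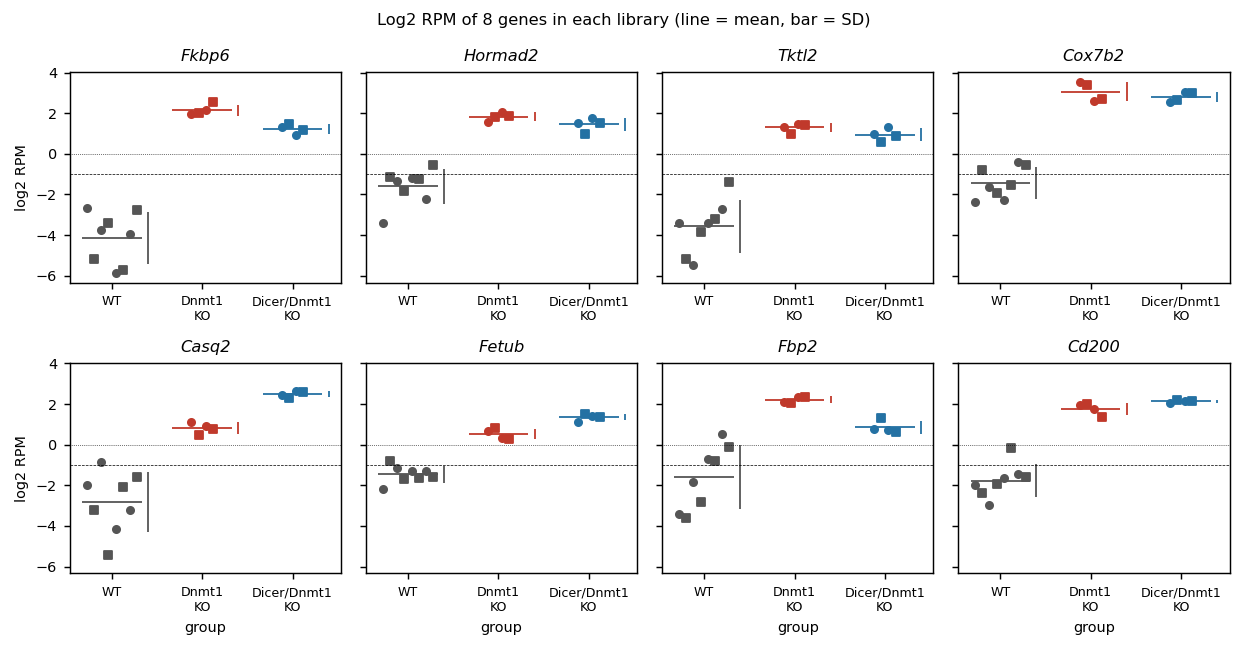
Log2 RPM of 8 genes of the set in each library (circles for letter A, squares for letter B), with the mean as a line, the SD as a bar, the limits at 0 (dotted) and -1 (dashed). Casq2 and Fetub are higher and Fkbp6 and Fbp2 lower in Dicer/Dnmt1 KO without overlap, and Fbp2 reaches 0.54 in 1 WT library.

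There were 4 genes of transcription factors. Nkx2-9, a homeobox gene of the ventral neural tube, was at -2.99 to -1.07 in WT (median -2.34), at 1.82, 1.66, 1.89 and 1.13 in Dnmt1 KO and at 1.80, 1.65, 1.05 and 1.25 in Dicer/Dnmt1 KO. Hand1, a helix-loop-helix factor of trophoblast giant cells and heart, was at -3.39 to -1.47 in WT (median -2.10), at 0.63, 0.91, 1.18 and 1.11 in Dnmt1 KO and at 1.16, 0.56, 0.91 and 0.67 in Dicer/Dnmt1 KO. Both overlapped between the knockouts, with differences of -0.18 (95% interval -0.99 to 0.63) and -0.13 (-0.90 to 0.64).

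Hand1 was the single gene of a list of 12 trophoblast genes that was in the set. Of the 5 other trophoblast genes tested, 2 were higher than WT in each knockout, beside 23.5% and 31.9% of all genes tested. The list's summed RPM was 180 to 281 in WT, 201 to 220 in Dnmt1 KO and 219 to 255 in Dicer/Dnmt1 KO. Meox1, a homeobox gene of somites, had knockout means of 0.91 and 0.67. Sox18, a factor of blood and lymph vessel endothelium, was at 1.09, 1.29, 1.20 and 0.45 in Dnmt1 KO and at 2.18, 1.55, 1.51 and 1.55 in Dicer/Dnmt1 KO, where it did not overlap (0.69 ± 0.53, limma, adjusted p = 0.32).

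Receptor and signalling genes numbered 7. Cd200 encodes a surface glycoprotein that restrains myeloid cells through its receptor. It was at -2.99 to -0.16 in WT (median -1.79), at 1.94, 1.98, 1.75 and 1.37 in Dnmt1 KO and at 2.03, 2.18, 2.14 and 2.16 in Dicer/Dnmt1 KO. Each Dicer/Dnmt1 KO library was higher, by 0.37 on average (-0.47 to 1.21). Gabra4 and Gabrg3 encode subunits of the GABA-A receptor and went opposite ways between the knockouts (-0.48 and 0.43, neither called). Frk (a kinase related to Src), Rapgef4 (an exchange factor for Rap that cAMP activates), Agap2 (a GTPase-activating protein for Arf) and A430078G23Rik had differences of 0.55, 0.09, 0.29 and -0.13, none of them called.

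Enzymes, secreted proteins and proteins of the matrix or of membranes made up 9 genes. Chit1, a chitinase of macrophages, was at -5.55 to -1.61 in WT (median -2.89), at 1.96, 1.67, 1.76 and 1.56 in Dnmt1 KO and at 1.83, 1.87, 1.76 and 1.78 in Dicer/Dnmt1 KO. Its difference of 0.07 had an interval of -1.07 to 1.22 in the 16-library fit, while its SD over libraries was 1.16 (WT), 0.17 (Dnmt1 KO) and 0.05 (Dicer/Dnmt1 KO). Ace (angiotensin-converting enzyme), Soat2 (which esterifies cholesterol), Glt25d2 (which adds galactose to collagen), Hmcn2 (a hemicentin of the matrix) and Atp8b1 (a phospholipid flippase) had differences of 0.33, -0.02, 0.18, 0.43 and 0.35, none called.

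Casq2 encodes the calsequestrin that stores calcium in heart muscle. It was at -5.41 to -0.86 in WT (median -2.65), at 1.11, 0.46, 0.94 and 0.76 in Dnmt1 KO and at 2.45, 2.31, 2.64 and 2.57 in Dicer/Dnmt1 KO. The groups lay far apart in both numbers (1.60 and 1.76). The difference of 1.68 ± 0.68, or 3.2-fold, missed the threshold in the 16-library fit (limma, adjusted p = 0.062) and passed it with the 8 knockout libraries alone (3.6e-06).

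Fbp2, the fructose-1,6-bisphosphatase of muscle, went the other way. It was at 2.12, 2.03, 2.34 and 2.36 in Dnmt1 KO and at 0.77, 1.31, 0.72 and 0.61 in Dicer/Dnmt1 KO, without overlap. The difference was -1.36 ± 0.71 (limma, adjusted p = 0.14 over 16 libraries, 3.4e-05 over 8). Its WT libraries differed by number, at -3.39, -3.62, -1.86 and -2.83 in numbers 1 and 2 and at -0.72, -0.80, 0.54 and -0.12 in numbers 3 and 4.

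Fetub encodes fetuin B, a secreted protease inhibitor of liver. It was at -2.17 to -0.81 in WT (median -1.47), at 0.66, 0.83, 0.34 and 0.28 in Dnmt1 KO and at 1.13, 1.49, 1.39 and 1.36 in Dicer/Dnmt1 KO. The groups did not overlap, and the difference of 0.81 ± 0.26 was called in both fits (limma, adjusted p = 0.019 over 16 libraries and 0.0023 over 8).

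The last 10 genes have other, unclear or no protein products. Rcsd1, which binds actin capping protein, was at 0.94, 1.27, 1.46 and 1.57 in Dnmt1 KO and at 1.34, 1.82, 2.13 and 1.74 in Dicer/Dnmt1 KO, with overlap. The lincRNA 9330185C12Rik was at 0.09, 0.01, 0.07 and 0.00 in Dnmt1 KO and at 0.72, 0.68, 1.27 and 1.00 in Dicer/Dnmt1 KO, and was called (0.87 ± 0.27, limma, adjusted p = 0.017). The processed transcript Gm12114 was at 1.53, 0.85, 1.58 and 1.15 in Dnmt1 KO and at 0.11, 0.22, 0.30 and 0.67 in Dicer/Dnmt1 KO, and was called lower (-0.95 ± 0.29, limma, adjusted p = 0.016). Both lie just inside the knockout limit, the first through its Dnmt1 KO libraries and the second through its double knockout libraries. WI1-1377A22.2 and Prrt3 were higher in Dicer/Dnmt1 KO without overlap (1.01 and 0.82, adjusted p = 0.066 and 0.051 by limma). Fam184b, Tmem132c, Fbxo24, Fam190a and Trank1 differed by -0.25 to 0.28 and were not called.

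The comparison of the 2 knockouts with each other covers the loss of Dicer1 and any other difference between the lines. The study's methods describe double lines made by CRISPR, with Dicer deleted conditionally or constitutively, and the labels give neither the type nor the clone. The loss of Dicer1 and a difference between lines or clones therefore cannot be told apart here. Of 4 Y-linked genes tested, 1 was lower and 0 were higher in Dicer/Dnmt1 KO (limma, adjusted p under 0.05), with a median difference of -0.46. The rule set the same limit for both knockouts and did not use their difference, although a gene that dropped below 1 RPM in Dicer/Dnmt1 KO could not enter. All 53 genes passed the filter for testing, through the knockout libraries in which they were chosen to be high. In the fit over 16 libraries 3 of the 53 were called (5.66%), beside 36.3% of the 12892 genes tested. Fetub and 9330185C12Rik were higher (2 genes, beside 16.9% of all genes) and Gm12114 was lower (1 gene, beside 19.4%). An unadjusted p under 0.05 was reached by 7 of the 53, beside 45.8% of all genes. With a change of at least 2-fold as well, 0 of the 53 were called, beside 2.96% higher and 1.61% lower.

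The 16-library fit shares 1 spread between all groups, and these genes were more spread in WT. Their median SD was 0.83 in WT and 0.27 and 0.24 in the knockouts, beside 0.23, 0.16 and 0.14 over all genes tested. When the 8 knockout libraries alone were fitted, 8 were called higher, beside 22.8% of all genes, and 11 lower, beside 24.5%. Higher were Casq2, WI1-1377A22.2, 9330185C12Rik, Prrt3, Fetub, Sox18, Gm9107 and Frk. Lower were Fbp2, Gm13078, Fkbp6, Gm8300, Gm12114, Dub3, Gm3662, Gm2016, Gm13109, Gm5662 and BB287469.

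Without any fit, all 4 Dicer/Dnmt1 KO libraries were above all 4 Dnmt1 KO libraries for 9 of the 53 genes, beside 20.8% of all genes, and below them for 8, beside 22.3%. By these measures the share of changed genes was no larger than in the whole table. With log2(RPM + 1) it was larger among the genes called lower, at 14 of the 53 (26.4%) beside 19.8% of all genes. The consensus correlation of limma within group and number was 0.67 over all genes. The deviations of letters A and B from their group's mean correlated at 0.11 to 0.18 in the knockouts and at 0.09 to 0.72 in WT over the genes tested. When number was treated as a random block, limma called 0 of the 53, and 0 had an unadjusted p under 0.05, while 1015 genes were called higher and 1094 lower. Under that block the adjusted p was 0.29 for Fetub, 0.25 for 9330185C12Rik and 0.26 for Gm12114 (limma). Without single libraries the 16-library fit called 1 to 5 higher and 0 to 2 lower, beside 13.2% to 19% and 14.6% to 21.3% of all genes. The call of Fetub was lost without Dnmt1 KO 2A or 2B or Dicer/Dnmt1 KO 1B, that of 9330185C12Rik without Dicer/Dnmt1 KO 2A, and that of Gm12114 without Dnmt1 KO 1A or 2A, with adjusted p of 0.05 to 0.058.

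Direction was unequal between the groups of genes. The median difference of the 53 was -0.17, beside -0.01 over all genes, with 20 above 0 and 33 below. Over all genes tested 49.2% lay above 0. Of the 19 genes with near copies 17 lay below 0 (median -0.43), and of the 34 others 18 lay above and 16 below (median 0.08). Copies share reads, so the 19 genes are not independent. The fit over the 8 knockout libraries called 1 of the 19 higher and 8 lower, and 7 of the 34 higher and 3 lower. The same fit called 22.8% of all genes tested higher and 24.5% lower. All 4 germ cell genes and all 6 PRAME-like genes lay below 0, and 7 of the 9 enzyme and matrix genes above. These role groups were formed with the values known, so the counts are a description. Between numbers 1 and 2 the sign of the difference was shared by 44 of the 53 genes and opposite in 9.

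**Figure D4:**
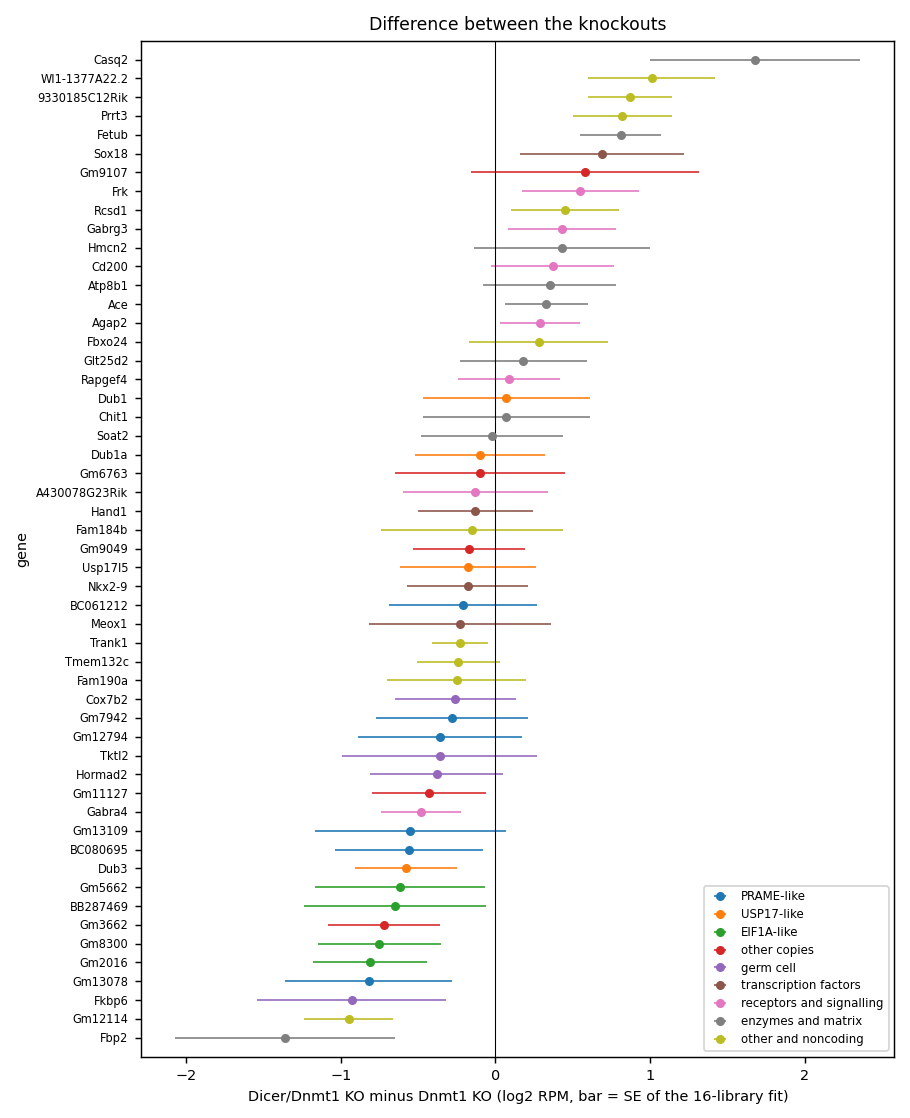
Difference between Dicer/Dnmt1 KO and Dnmt1 KO (log2 RPM, points coloured by role) for the 53 genes, with the SE of the 16-library fit as bars, in order of size. Casq2 (1.68) and Fbp2 (-1.36) are at the ends, and most genes with near copies lie left of 0.

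Within WT, the genes varied with the replicate number. Dnmt1 RNA had means of 7.58, 7.60, 7.43 and 5.62 log2 RPM in WT numbers 1 to 4, and summed RPM of the 53 genes was 11.5, 13, 13.9 and 17.3 in the same order. Number 4 had the highest mean of the 4 for 25 of the 53 genes. The mean of number 4 was above that of the other 3 numbers for 81.1% of the set (median difference 0.54), for 76.7% of the autosomal genes that were low in WT and outside the set (0.06) and for 46.2% of all genes tested (-0.04). All knockout libraries lay at 125 to 160. Whether it goes with the lower Dnmt1 RNA was not tested, since number 4 is 1 pair of libraries.

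The promoter windows of the set were close to those of other genes low in WT and far from those of genes present in WT. The 53 windows held a median of 6 CpG sites, beside 4 for the autosomal genes outside the set with a WT mean below -1, 20 for those at -1 or above and 10 for all autosomal genes. The observed over expected number of CpG sites was at least 0.6 in 10 of the 53 (18.9%), beside 16%, 68.8% and 42.8%. In the windows of the 19 genes with near copies there were 0 to 4 sites (median 2), as in the Dub1 and Dub1a sequences above. In the 34 others the median was 12.5, with 10 to 23 in the germ cell genes and up to 46 in Fam190a. The CpG content of copies is not independent between them.

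**Figure D5:**
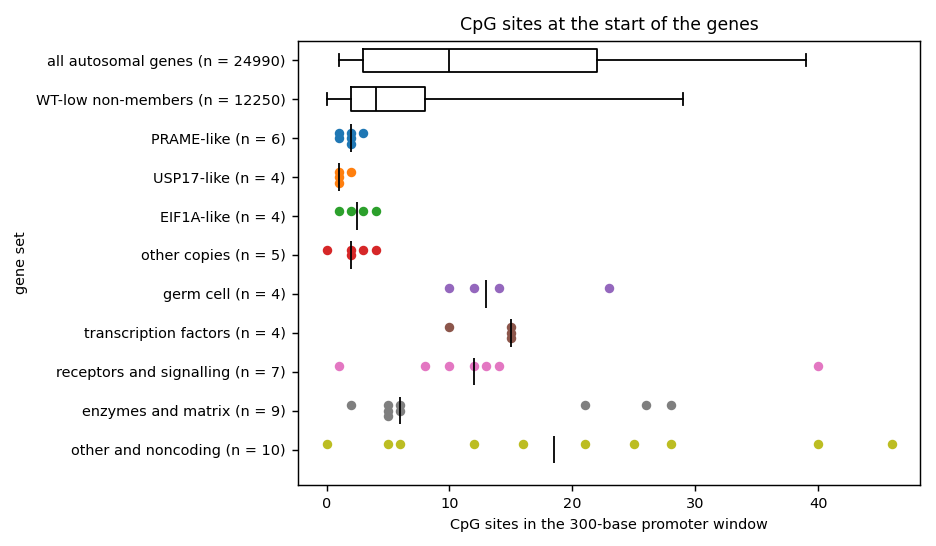
CpG sites in the 300-base window at the start of the genes, as boxes (quartiles and median, whiskers from the 5th to the 95th percentile) for all autosomal genes and for those low in WT outside the set, and as points with a median line for each role group of the set. The PRAME-like, USP17-like, Eif1a-like and other copies hold 0 to 4 sites, and the germ cell genes 10 to 23.

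Motifs were searched on both strands of these windows. CACGTG, the E-box of the MGA and MAX factors that silence germ cell genes in ESCs, was found in 3 of 53 (5.66%: Fkbp6, Fbp2 and Fam184b), beside 7.52% of all autosomal windows and 5.13% of those low in WT. The E2F motif TTCCCGCC was found in 1 (1.89%: Trank1), beside 2.61% and 0.955%. The CRE motif TGACGTCA was found in 0, beside 2.19% and 1.06%. The palindromic motif of NRF1 was found in 1 (1.89%: Tktl2), beside 1.1% and 0.245%, in the sequence shown above. TATAAA was found in 12 (22.6%), beside 13.3% and 19.3%, and 7 of these 12 were genes with near copies. A match is a description of the letters and not of binding.

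Marker lists of other cells were measured beside the set. As for the germ cell and trophoblast lists, genes below log2 RPM of 0 in every WT library were tested only through knockout libraries. Summed RPM of 13 feeder fibroblast genes was 147 to 269 in WT, 259 to 280 in Dnmt1 KO and 229 to 400 in Dicer/Dnmt1 KO, and 7 and 9 of the 11 genes tested were higher than WT (limma, adjusted p under 0.05). Summed RPM of 8 primitive endoderm genes was 51.8 to 109, 128 to 218 and 106 to 123. Of these 8, all were higher than WT for Dnmt1 KO and 5 for the double knockout. Between the knockouts 4 of the 8 were lower in the double knockout and none higher, with a median of -0.84 (limma, adjusted p under 0.05). Of 3 neural genes tested, 0 were higher and 1 lower than WT in Dnmt1 KO. In Dicer/Dnmt1 KO 2 of the 3 were higher and 1 lower than WT, and 2 were higher than in Dnmt1 KO. Summed RPM of 10 pluripotency genes was 2020 to 3390 in WT, 1860 to 2480 in Dnmt1 KO and 2070 to 2370 in Dicer/Dnmt1 KO. Of these 10, 0 were higher and 3 lower than WT in Dnmt1 KO (limma, adjusted p under 0.05). In Dicer/Dnmt1 KO 1 was higher and 2 lower than WT, and 3 were higher and 2 lower than in Dnmt1 KO. Over all genes tested 23.5% were higher and 17.5% lower than WT for Dnmt1 KO, and 31.9% and 30.1% for Dicer/Dnmt1 KO. Between the knockouts 16.9% were higher and 19.4% lower in Dicer/Dnmt1 KO. Several genes of the set, such as Casq2, Chit1, Cd200 and Fetub, are known from tissues other than ESCs. The part of such cells in the levels of these genes was not tested.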

How the data were processed

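Total RNA without ribosomal RNA was sequenced from 16 ESC libraries, in stranded libraries read from both ends. The authors trimmed the reads (Trim Galore 0.3.5, per the submitters' processing notes), aligned them to NCBIM37 (TopHat2 2.0.11, likewise), discarded alignments of low mapping quality and counted reads per gene in SeqMonk. As deposited, values are log2 RPM, with a gene without reads written as 0.9 read. Whether reads were counted by strand is not given in the sources used here. A further 35 value columns belong to other samples and were not used here. Read numbers were recovered from the deposited log2 values (at least 99.7% of values were whole within 0.01) and serve as description only.

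Genes above log2 RPM of 0 in at least 4 libraries (12892) were tested. A limma fit (version 3.58.1, R 4.3.3) gave each of the 3 groups its mean and let the variance follow intensity. The p-values were adjusted by Benjamini-Hochberg over all 12892 genes with a threshold of 0.05. Every adjusted p above comes from this fit or, where said, from the same fit on the 8 knockout libraries, with a random block or without a library. The authors themselves had used DESeq2 together with the intensity difference filter of SeqMonk. The fitting code was tested on simulated data.

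The genes and lists were chosen with earlier results of these data known. The naming rule took the 12 genes highest in the knockouts, those called between the knockouts, those on a list, those within 100 kb of another, the 5 nearest each limit on either side and the 5 with the widest WT range, without predicted genes in the first, second and last. Other genes of the 53, and the role groups, were chosen after their values were seen. Coordinates, transcripts and promoter windows came from GENCODE M1 and the NCBIM37 genome, and proteins were translated from its coding transcripts and compared with BLAST 2.17.0. Alternatives were other pseudocounts, scalings, filters, blocks and left-out libraries. Leaving out both WT libraries of number 4, and genes with a transcript near-identical to another, was added after seeing the data.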

Additional observations from a re-analysis of the deposited data

Results flagged for a closer look

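Among 108 groups of values (36 measures in 3 groups), 5 held a library that stood apart from the others of its group by Dixon's test, where chance alone gives about 1 in 20. All were WT libraries, in which these genes have few reads. Dub1a was at -3.48 in WT 4B, while the remaining 7 lay at -5.72 to -4.98. Summed RPM of the PRAME-like genes was 0.53 in WT 4B, beside 0.16 to 0.27. Chit1 was at -5.55 in WT 3B, beside -3.41 to -1.61. Gm8300 was at -5.36 in WT 1B, where it had no read, beside -4.07 to -2.97. Hmcn2 was at -4.20 in WT 1B, beside -1.52 to -0.47.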

How the results depend on the processing

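The size of the set depended on its limits. It was 29 with a WT mean below -2, 29 with every WT library below -1, 14 with all knockout libraries above 1, 35 after quantile normalization and 50 to 61 without 1 library. Genes of the set called higher and lower between the knockouts (2 and 1 above) changed with the setting. They were 7 and 14 with log2(RPM + 1) (13.2% and 26.4%, beside 17.7% and 19.8% of all genes). The shares of all genes follow in brackets for the other settings. The counts were 5 and 5 with log2(RPM + 0.1) (17.2% and 19.6%) and 5 and 6 after quantile normalization (18% and 21.6%). They were 1 and 0 of 36 tested with a stricter filter (17.7% and 20.4%), and 5 and 1 with the trend on length removed (16.9% and 20.1%). With only the 8 knockout libraries they were 8 and 11 (22.8% and 24.5%). Without both WT libraries of number 4 (added after seeing the data) they were 5 and 3. They were 0 and 0 without a filter (7.51% and 8.7%) and 1 and 0 with letters averaged (5.28% and 4.22%). They were 0 and 0 with letter A only (4.2% and 3.18%) and with letter B only (3.1% and 2.07%). The random block (7.87% and 8.49%) and a limit of 2-fold (2.96% and 1.61%) also gave 0 and 0. At an unadjusted p under 0.05 limma gave 7 without a filter, 5 with letters averaged, 2 with letter A, 0 with letter B and 0 with the random block. Without 1 library the counts were 1 to 5 higher and 0 to 2 lower, beside 13.2% to 19% and 14.6% to 21.3% of all genes. Fewer than 2 higher were left without Dnmt1 KO 2B, Dicer/Dnmt1 KO 1B or 2A (1 each), and none lower without Dnmt1 KO 1A or 2A. More were called without WT 2A or 2B (4 higher each), WT 4B (5 higher) or WT 1B (2 lower). WT 1A, 3B and 4A left out gave 3 higher each. Fetub, Gm12114 and 9330185C12Rik each lost the call in several of these.

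The same labels 1A to 2B occur in both knockouts, but libraries with the same label did not deviate together (correlations -0.16, -0.06, -0.22 and -0.03), so they were not taken as pairs. With the replicate block 9 were called higher and 10 lower (17% and 18.9%), beside 2593 (20.1%) and 2730 (21.2%) of all genes.

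The median difference between the knockouts was -0.19 to -0.12 without 1 library and -0.06 without the 13 genes whose transcript was at least 95% identical to that of another gene (added after seeing the data). The median difference of Dnmt1 KO and Dicer/Dnmt1 KO from WT was 1.41 and 1.38 with log2(RPM + 1), 2.99 and 2.84 with log2(RPM + 0.1), 2.84 and 2.62 after quantile normalization, 3.35 and 3.19 against WT numbers 3 and 4, 3.72 for Dicer/Dnmt1 KO against WT numbers 1 and 2, and 3.48 to 3.72 and 3.25 to 3.56 without 1 library. The difference between the knockouts changed sign in 23 values of 11 genes, none of them called in any of these (lowest adjusted p 0.82 by limma). With letter A only it was -0.06 for Chit1, 0.04 for Dub1a, -0.01 for Dub1 and 0.13 for Hand1. With letter B only it was 0.11 for Usp17l5, 0.06 for Nkx2-9 and 0.04 for Soat2. With the trend on length removed it was -0.03 for Hmcn2, 0.09 for Cox7b2, 0.06 for Dub1a, 0.17 for Gm6763, 0.02 for Nkx2-9 and 0.06 for Soat2. Without 1 library it ran from -0.21 to 0.04 for Dub1a, -0.03 to 0.21 for Dub1, -0.23 to 0.05 for Gm6763, -0.26 to 0.02 for Gm9049 and -0.21 to 0.12 for Soat2. The other genes of the set kept their sign in the alternatives run. The cause of these shifts was not tested. The WT levels rest on 365 to 797 reads per library over all 53 genes, which limits their precision.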
